A study of Mus musculus with 13 samples.

Results

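Fibroblasts of the gut wall make the collagen fibres, proteoglycans, laminins and fibulins that surround the epithelium, and 38 genes of this kind were followed here in mouse duodenum. They were taken as a named list of fibroblast receptors, collagens, matrix glycoproteins and matrix-remodelling enzymes. No cut on measured values was made, but the list was chosen with earlier results of these data known. The shares of members given below carry that limit. Each gene was read from the probe sets that carried its symbol alone, and where there were several, from the one with the highest mean over the 13 arrays. That gave values for 37 of the 38 genes among 12393 genes measured in the same way. Fbn1, which encodes the microfibril protein fibrillin, had no probe set of that kind and has no value here.

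All 13 samples were RNA from the duodenum of mice on a mixed strain background, hybridised from 200 ng of total RNA to 3′ expression arrays. Mice carrying a K-Ras mutation, which the labels call ViRas, were compared with wild-type mice, labelled CO. The diet was given from 5 weeks of age for 22 weeks and was a normal diet (ND), a high-fat diet (HFD) or the high-fat diet with added butyrate, a short-chain fatty acid that gut bacteria make from fibre. The ND groups hold 2 wild-type and 3 mutant arrays, the HFD groups 2 and 2, and the groups on HFD with butyrate 1 and 3. The sources used here name neither the mutant allele nor a promoter or cell type that restricts it, and the labels do not say which cells of the duodenum carry it. Arrays are numbered within each group as in the labels. The array identifiers of each diet lie in their own number range, so diet and array series cannot be told apart, whereas wild-type and mutant arrays of 1 diet lie in the same range. The p-values below measure the spread between these samples. Array medians ran from 6.04 to 6.14 on the log2 scale.

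As background, type I and type III collagen form the load-bearing fibrils of the intestinal lamina propria and submucosa, with type V collagen inside the fibrils and the small proteoglycans decorin, lumican and biglycan on their surface. Type VI collagen builds beaded filaments around cells, and type IV collagen, laminins and nidogen build the basement membrane under the epithelium and around vessels and muscle. Lysyl oxidases cross-link the fibrils, matrix metalloproteinases such as Mmp2 cut matrix proteins, and the Timp proteins inhibit those proteases. Platelet-derived growth factor receptors mark the mesenchymal cells that make this matrix: Pdgfra marks fibroblasts of the villus and crypt, and Pdgfrb marks perivascular and other stromal cells.

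The defining fibroblast genes of the list (Pdgfra, Thy1, Dcn, Lum, Col1a1, Col1a2 and Col3a1) differed in level, and Dcn and Col3a1 were the brightest. Dcn, for decorin, lay between 8.73 and 9.53 (log2 signal) and Col3a1, the chain of type III collagen, between 8.51 and 9.97 over the 13 arrays. In all, 2 of the 37 members, Lox and Timp1, had a mean under the 30th percentile of all genes, which was 5.09, and little can be read from their small differences. Of the defining genes, Col1a1 (percentile 40.7), Thy1 (47.2) and Lum (52.7) had the lowest means. Col1a1 read 5.26 to 5.31 on the mutant butyrate arrays, near that level. Detection calls and probe-level background were not used here. Levels of different genes are not set against each other, since probe sets bind with different strength.

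The 13 arrays differed in how the members lay around their own means. On the second mutant HFD array 30 of 37 members were below their mean over the 13 arrays, with a median deviation of -0.28 (log2). On the second mutant butyrate array 32 of 37 were below it, with a median of -0.19. The 2 wild-type HFD arrays had medians of 0.11 and 0.19, and the wild-type butyrate array had 27 of 37 members above their means, with a median of 0.13. The 3 mutant ND arrays lay close to the mean, between -0.03 and 0.01. Single mutant arrays on HFD and on butyrate therefore carried much of the low side, and the medians below are also given without them.

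**Figure D1:**
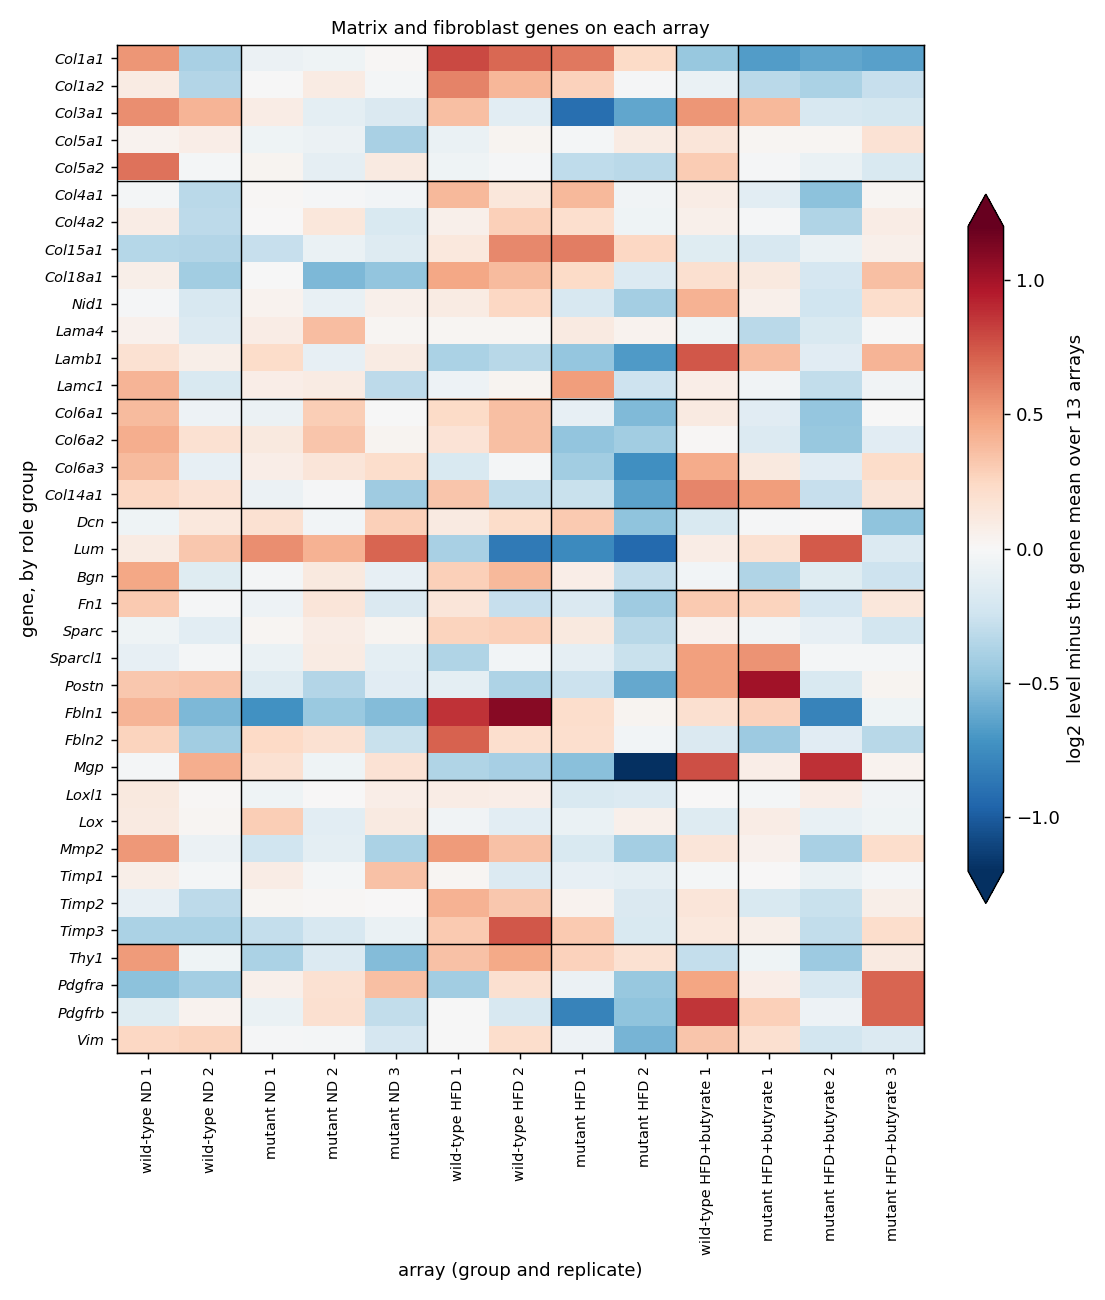
Level of each of the 37 measured members (rows, by role) on each of the 13 arrays (columns, by group), as the log2 difference from that gene's mean over the 13 arrays. The second mutant HFD array and the second mutant butyrate array hold the most values below the gene means, 30 and 32 of 37.

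Short stretches of the gene starts are shown for 3 members that the genotype and diet results below turn on, as the sequence that lies in front of each. They are the 100 bases upstream of the start listed for each gene in the RefSeq promoter table (GRCm38.p6), 5′ to 3′ on the gene's strand, and for these 3 that start is also the outer end of the gene in RefSeq. Capitals mark a match on either strand to 1 of 3 promoter motifs: the CAAT box, searched as CCAAT, the box bound by TATA-binding protein, searched as TATAAA, and the GC box, searched as GGGCGG. Only the GC box was found in these 3, once, in Timp3.
Col3a1, chr1:45311438-45311537, + strand: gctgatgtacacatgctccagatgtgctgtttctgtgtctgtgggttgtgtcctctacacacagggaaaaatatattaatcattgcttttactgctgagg
Col1a2, chr6:4505518-4505617, + strand: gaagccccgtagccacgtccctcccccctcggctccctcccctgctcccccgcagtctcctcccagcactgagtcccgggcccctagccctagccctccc
Timp3, chr10:86300312-86300411, + strand: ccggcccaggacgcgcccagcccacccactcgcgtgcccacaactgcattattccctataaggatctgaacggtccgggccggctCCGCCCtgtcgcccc
Of the 38 members, 23 matched an entry of the promoter table. The listed start was the outer end of the gene for 14 of the 23, and for the other 9 a transcript start further in, so that the window lies in part or whole inside the gene. GGGCGG was found in the 100 bases before the listed start of 11 of these 23 (47.8%), against 25.2% of 27025 promoters, and these 11 include genes that rose, genes that fell and genes that did not pass any test. CCAAT was found in 3 of 23 (13.0%, against 19.6%) and TATAAA in 1 (4.3%, against 6.0%). These are matches of letters in a window and are given as a description.

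The first question of the design is how mutant duodenum differed from wild type. Over the 3 diets, with diet and genotype as terms of 1 limma fit, 31 of the 37 members (83.8%) were lower in mutants, against 48.5% of all genes. The median difference over the members was -0.20 (log2, mutant minus wild type), and that over all genes was 0.005. Only Col3a1 passed the threshold (adjusted p under 0.05 over 12393 genes), 1 of 37 (2.7%) where 1.02% of all genes passed in either direction and 0.597% passed as lower. In bulk tissue, fewer cells of a type and less RNA per cell cannot be told apart.

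Col3a1 read 9.97 and 9.82 (log2 signal) on the wild-type ND arrays and 9.50, 9.29 and 9.23 on the mutant ND arrays. On HFD it read 9.77 and 9.29 in wild type and 8.51 and 8.78 in mutants. With butyrate it read 9.94 in wild type and 9.80, 9.22 and 9.20 in mutants. Within each diet every mutant array lay below every wild-type array. The fitted difference was -0.66 ± 0.12 (SE; 8 mutant and 5 wild-type arrays), 1.58-fold lower in mutants, with an adjusted p of 0.0412 (limma). The call was lost when any of 9 of the 13 arrays was left out, each array on ND or HFD, with a highest adjusted p of 0.0910 and a difference between -0.71 and -0.57 over all left-out fits. Weighting each diet equally, the replicate number as a block and the smooth muscle genes as a covariate each lost the call too.

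Fbln1, for the elastic-fibre protein fibulin-1, and Mmp2, the gelatinase that cuts denatured collagen, had the next largest differences and did not pass. Fbln1 read 10.38 and 9.43 in wild type and 9.24, 9.53 and 9.45 in mutants on ND, 10.85 and 11.07 against 10.19 and 10.01 on HFD, and 10.17 against 10.25, 9.17 and 9.92 with butyrate. Its difference was -0.59 ± 0.18 with an adjusted p of 0.120 (limma), and the groups overlapped on ND and with butyrate. Mmp2 read 7.26 and 6.67 against 6.50, 6.63 and 6.36 on ND, 7.25 and 7.09 against 6.56 and 6.33 on HFD, and 6.89 against 6.79, 6.35 and 6.96 with butyrate. Its difference was -0.48 ± 0.13 with an adjusted p of 0.0880, and the groups were apart on ND and HFD only. Vim, for the intermediate filament vimentin of mesenchymal cells, differed by -0.38 ± 0.10 (adjusted p = 0.0760) and Col6a2 by -0.37 ± 0.11 (adjusted p = 0.101).

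By role, all 5 fibrillar collagens (median -0.20), all 4 genes of collagen VI and XIV (median -0.34) and all 7 measured elastic-fibre proteins and glycoproteins (median -0.22) were lower in mutants over the 3 diets. Of the 4 receptor and cytoskeleton genes 3 were lower, with Pdgfra at 0.14 ± 0.19 the exception. Of the 8 basement membrane genes 6 were lower, with a median of -0.05, and of the 6 cross-linking and turnover genes 4 were lower, with a median of -0.11. Among the 3 small proteoglycans Bgn (-0.27 ± 0.11) and Dcn were lower and Lum (0.11 ± 0.15) was higher. Apart from Col3a1 none of these passed the test, and 11 of the 37 (29.7%) had an unadjusted p under 0.05, against 16.5% of all genes. When each diet was taken alone, 17 of 37 members (45.9%) were lower in mutants in all 3 diets, against 16.7% of all genes, and Col15a1 and Lox were higher in all 3 (5.4%, against 17.6%).

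**Figure D2:**
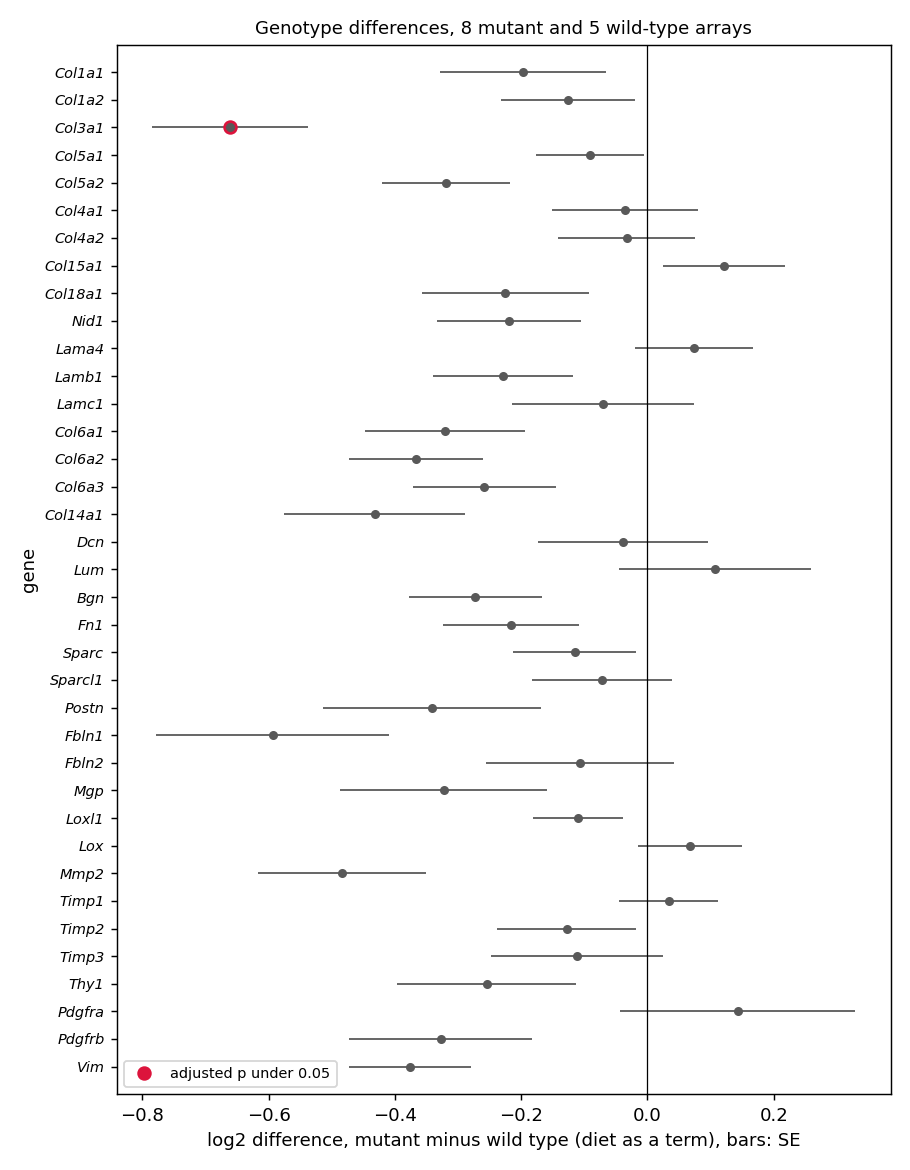
Difference between mutant and wild type (log2, mutant minus wild type) for each of the 37 members over the 3 diets, with the standard error of the fit. Most members lie below 0 (31 of 37), and Col3a1 at -0.66 is the 1 that passed the threshold.

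The diets differed in how many members were low, and no single diet gave a member past the threshold in limma with adjustment over all genes. On ND 20 members were lower and 17 higher in mutants, with a median of -0.05. None passed in either direction, where 0.0242% of all genes passed and 0.0161% passed as lower, and 4 (10.8%) had an unadjusted p under 0.05, against 12.7% of all genes. The groups did not overlap for 7 lower members (18.9%, against 12.4% of all genes) and 6 higher members (16.2%, against 16.7%). Among the receptor and cytoskeleton genes Pdgfra was higher there, Thy1 and Vim (-0.34) were lower, and Pdgfrb differed by -0.01. Pdgfra read 7.24 and 7.33 in wild type and 7.79, 7.92 and 8.10 in mutants, a difference of 0.65 ± 0.25 (adjusted p = 0.317). Its second probe set, with a mean of 4.02, differed by 0.18. Thy1, a surface glycoprotein of fibroblasts, read 6.91 and 6.35 against 6.02, 6.24 and 5.88, a difference of -0.58 ± 0.20 (adjusted p = 0.246). Col3a1 differed by -0.55 ± 0.20 (adjusted p = 0.280).

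On HFD 31 of 37 members were lower in mutants, with a median of -0.30. None passed in either direction, where 0.0403% of all genes passed and 0.0161% passed as lower. The smallest adjusted p was 0.161, and 15 (40.5%) had an unadjusted p under 0.05, against 11.3% of all genes. The 2 mutant arrays lay below both wild-type arrays for 21 members (56.8%), against 20.2% of all genes, and above both for 1 (2.7%), against 24.2%. The 21 are Col1a1, Col1a2, Col3a1, Col5a2, Col18a1, Nid1, Lamb1, Col6a1, Col6a2, Col6a3, Bgn, Fbln1, Mgp, Sparc, Loxl1, Mmp2, Timp2, Timp3, Thy1, Pdgfrb and Vim, and the 1 is Lama4. The largest differences were those of Col3a1 (-0.89 ± 0.22, adjusted p = 0.189), Fbln1 (-0.86 ± 0.33, adjusted p = 0.364) and Mmp2 (-0.73 ± 0.22, adjusted p = 0.260). The median was -0.16 without the second mutant HFD array and -0.49 without the first. On the same arrays all 10 macrophage markers were lower in mutants (median -1.10) and all 13 acinar pancreas markers were lower (median -4.25), none past the threshold, and 9 of 10 epithelial markers were higher (median 0.09). Their part in the result was not tested beyond the fit with the acinar list as a covariate.

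With butyrate 32 of 37 members (86.5%) were lower in mutants, with a median of -0.22, but wild type is 1 array there and its spread is taken from the other groups. None passed (adjusted p at least 0.815; 1 of 37, 2.7%, had an unadjusted p under 0.05), and none of all genes passed (0%; 749 of all genes, 6.0%, had an unadjusted p under 0.05). All 3 mutant arrays lay below the wild-type array for 18 members (48.6%), against 28.0% of all genes. The largest differences were those of Pdgfrb (-0.55 ± 0.27), Lamb1 (-0.54 ± 0.21) and Col3a1 (-0.53 ± 0.25). The second probe set of Pdgfrb stood at 0.16, the other way. The other probe sets of Lamb1 (-0.23 and -0.22) and Col3a1 (-0.47) went the same way as the chosen ones. The median was -0.24, -0.14 and -0.25 without mutant butyrate arrays 1, 2 and 3 in turn. All 13 acinar markers (median -4.54) and 7 of 10 macrophage markers (median -0.24) were lower in mutants there. The interaction, in which the HFD difference in mutants is set against that in wild type, is taken up after the diet comparisons.

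The second question is how HFD compared with ND. In mutants 7 of the 37 members passed (18.9%), close to the 17.7% of all genes that did, so the number of members past the threshold does not set them apart. The matrix genes that moved were lumican, matrix Gla protein, 2 collagen VI chains, type III collagen and a laminin chain, which were lower on HFD, and collagen XV, which was higher. The 6 that fell are 16.2% of the members, against 10.1% of all genes, and the 1 that rose is 2.7%, against 7.67%. Over all 37 members 25 were lower on HFD, with a median of -0.16 against -0.02 for all genes. The HFD arrays lay below all ND arrays for 13 members (35.1%), against 27.9% of all genes, and above them for 5 (13.5%), against 23.7%.

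Lum, whose product lumican regulates the spacing of collagen fibrils, had the largest difference of the members. It read 7.36, 7.22 and 7.49 on the mutant ND arrays and 6.03 and 5.86 on the mutant HFD arrays, so the groups were far apart. The difference was -1.41 ± 0.23, 2.66-fold lower on HFD (adjusted p = 0.00245, limma), and it was the 1 call of the 21 on members in this report that was kept under every alternative tried. In wild type Lum read 6.89 and 7.12 on ND and 6.40 and 5.95 on HFD, a difference of -0.83 ± 0.25 that did not pass (adjusted p = 0.0580). All 4 HFD arrays thus lay below the other 9, which ran from 6.63 to 7.53. Dcn, the neighbouring gene on the chromosome with no protein-coding gene between, differed by -0.23 in mutants and did not pass.

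Mgp encodes an inhibitor of calcification and read 8.21, 7.98 and 8.20 on mutant ND against 7.52 and 6.79 on mutant HFD. It was lower by 1.97-fold (-0.98 ± 0.27, adjusted p = 0.0278), and the second HFD array was much the lower of the pair. Without that array its difference was -0.61 (adjusted p = 0.246).

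Of the 3 collagen VI chains, 2 fell. Col6a3 read 7.73, 7.80 and 7.86 on mutant ND and 7.23 and 6.92 on mutant HFD (-0.72 ± 0.16, adjusted p = 0.0120). Col6a2 read 8.74, 8.95 and 8.66 against 8.15 and 8.21 (-0.61 ± 0.14, adjusted p = 0.0120). Both pairs of groups were apart. Col6a1, next to Col6a2 on the chromosome, read 8.17, 8.53 and 8.24 against 8.14 and 7.71, lower on HFD without passing. A second probe set of Col6a2, of a type that can bind related transcripts, differed by 0.01, so the Col6a2 result rests on 1 of its 2 probe sets.

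Col3a1 was lower on HFD in mutants as well (-0.70 ± 0.20, 1.62-fold, adjusted p = 0.0322), from 9.50, 9.29 and 9.23 to 8.51 and 8.78, with the groups apart. Its second probe set went the same way, by -0.28. This call was lost when any 1 of the 5 arrays was left out (differences of -0.83 to -0.56, adjusted p of 0.0552 to 0.206). Lamb1, a beta chain of basement membrane laminins, read 7.89, 7.58 and 7.77 on ND and 7.21 and 6.99 on HFD (-0.64 ± 0.17, adjusted p = 0.0214). Its other probe sets differed by -0.40 and 0.45, which is to say in opposite directions.

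Col15a1, a collagen of the outer zone of vascular and muscle basement membranes, was the member that rose. In mutants it read 5.81, 6.02 and 5.94 on ND and 6.71 and 6.35 on HFD (0.60 ± 0.16, adjusted p = 0.0255). In wild type it read 5.75 and 5.74 on ND and 6.22 and 6.67 on HFD (0.70 ± 0.18, adjusted p = 0.0296). It was the only member that passed in both genotypes, and the groups were apart in each. Of the 7 calls in mutants, Lum, Mgp and Col6a3 were kept without the first mutant HFD array, and Lum and Col15a1 without the second. Without mutant ND array 1 or 3, Lum, Col6a2 and Col6a3 were kept, and without array 2 all but Col3a1. The calls lost had adjusted p-values of 0.0552 to 0.246. With the mean of the smooth muscle genes as a covariate 4 members passed in all.

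In wild type HFD went with higher matrix genes where any passed. There 4 of 37 members rose (10.8%) and none fell, against 11.0% of all genes in either direction, 5.62% higher and 5.42% lower. Over the members 20 were higher and 17 lower, with a median of 0.08 against -0.04 for all genes. Both HFD arrays lay above both ND arrays for 10 members (27.0%), against 22.5% of all genes, and below them for 8 (21.6%), against 27.9%.

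The protease inhibitors Timp3 and Timp2 were among the 4. Timp3, which stays bound to the matrix, read 6.70 and 6.71 on wild-type ND and 7.40 and 7.83 on wild-type HFD (0.91 ± 0.21, 1.88-fold, adjusted p = 0.0194). In mutants it read 6.80, 6.90 and 7.01 on ND and 7.40 and 6.91 on HFD, which overlapped. Timp2, which also helps to activate Mmp2, read 7.67 and 7.45 on wild-type ND and 8.17 and 8.09 on wild-type HFD (0.57 ± 0.14, adjusted p = 0.0240), and 7.78, 7.77 and 7.77 against 7.80 and 7.58 in mutants. The wild-type groups were apart for both inhibitors, and all 3 other probe sets of Timp3 and all 5 of Timp2 went the same way in wild type. In mutants the other probe sets were also higher on HFD, by 0.57, 1.02 and 1.23 for Timp3 and by 0.08 to 1.26 for Timp2. The chosen ones differed by 0.25 and -0.08 there, so the small mutant differences rest on the chosen probe sets.

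Col1a2, for the second chain of type I collagen, also rose in wild type, from 7.91 and 7.46 to 8.41 and 8.22 (0.63 ± 0.16, adjusted p = 0.0281). In mutants it read 7.81, 7.92 and 7.79 on ND and 8.09 and 7.80 on HFD, with overlap. Fbln1 had the largest difference in wild type, from 10.38 and 9.43 to 10.85 and 11.07 (1.05 ± 0.33, 2.07-fold), and did not pass (adjusted p = 0.0656). Single arrays bear on the 4 wild-type calls. None of the 4 was kept without the second wild-type HFD array (adjusted p of 0.0748 to 0.212) or without the second ND array (0.0628 to 0.133). Timp3 and Col15a1 were kept without the first HFD array, where Timp2 (0.119) and Col1a2 (0.151) were not. Col1a2 and Timp2 were kept without the first ND array, where Timp3 (0.0516) and Col15a1 (0.0676) were not. No member passed in a fit of these 4 arrays alone or with array weights.

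The HFD differences in mutants and in wild type share no array, though they share the array series of each diet. They had the same sign for 25 of 37 members (67.6%), against 72.4% of all genes: 15 were lower in both and 10 higher in both. A further 10 were lower in mutants and higher in wild type, and 2 the reverse. In the interaction term 31 of 37 members (83.8%) had a lower value in mutants than in wild type, against 50.8% of all genes, with a median of -0.25. None passed in limma (smallest adjusted p = 0.915; 6 of 37, 16.2%, had an unadjusted p under 0.05, against 5.0% of all genes), where 0.00807% of all genes passed, so no member was shown to respond differently in the 2 genotypes. The largest values were those of Pdgfra (-0.80 ± 0.37), Timp3 (-0.66 ± 0.28) and Timp2 (-0.65 ± 0.19). These are values of the chosen probe sets, and the other probe sets of Timp3 and Timp2 were higher on HFD in mutants too. The second probe set of Pdgfra, with a mean of 4.02, differed between HFD and ND by 0.19 in mutants and 0.35 in wild type. The chosen one differed by -0.46 and 0.34, so the Pdgfra value rests on 1 probe set. Pdgfra read 7.32 and 7.93 on wild-type HFD and 7.67 and 7.28 on mutant HFD, beside the ND values given above. The median ran from -0.40 to -0.10 when single arrays were left out: it was -0.10 without the second mutant HFD array.

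**Figure D3:**
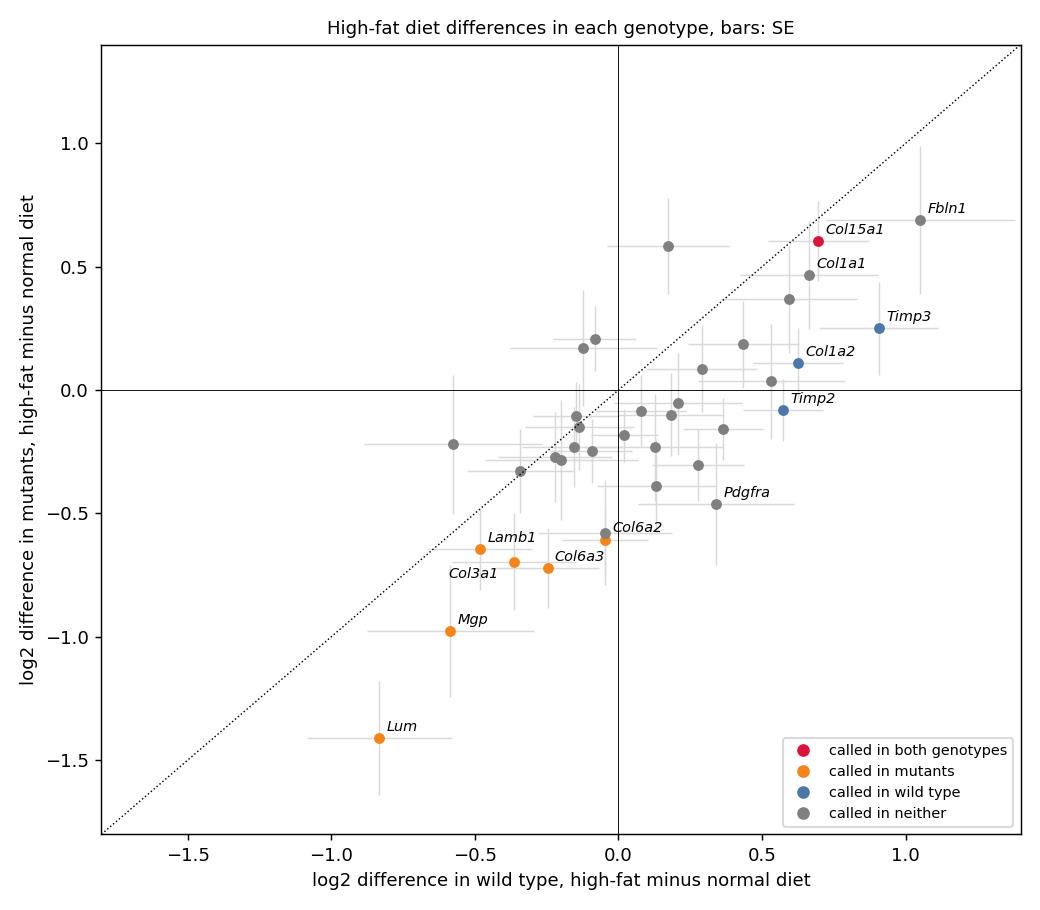
HFD minus ND difference (log2) of each of the 37 members in wild type (horizontal axis) and in mutants (vertical axis), with its standard error; members past the threshold in either genotype are coloured and named, as are Fbln1, Pdgfra and Col1a1. Most points (31 of 37) lie below the line of equal difference; Lum is lowest in both, and Col15a1 is high in both.

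The third question is how HFD with butyrate compared with HFD alone. The 2 sets of arrays were compared in mutants, where 9 of 37 members passed (24.3%), close to the 21.7% of all genes. Each diet is its own array series, so added butyrate and array series cannot be told apart here. The 6 that rose are 16.2% of the members, against 12.9% of all genes, and the 3 that fell are 8.1%, against 8.78%. Higher with butyrate were Mgp, Lum, Pdgfrb, Lamb1, Col3a1 and Col6a3, and lower were both chains of type I collagen and Col15a1. The median over the members was 0.08, and that over all genes was 0.02. This comparison uses the same 2 mutant HFD arrays as the HFD comparison in mutants, so a gene that these arrays read low appears lower in the first and higher in the second, and the pair of results is not independent.

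Mgp read 8.11, 8.91 and 8.07 with butyrate, against 7.52 and 6.79 on HFD alone (1.21 ± 0.27, 2.31-fold, adjusted p = 0.00870, limma). Lum read 6.98, 7.53 and 6.63, against 6.03 and 5.86 (1.10 ± 0.23, 2.15-fold, adjusted p = 0.00670). Both sets of groups were apart. Pdgfrb, the receptor for platelet-derived growth factor B, read 6.70, 6.36 and 7.11, against 5.62 and 5.94 on HFD, and 6.34, 6.61 and 6.13 on ND. The difference from HFD was 0.94 ± 0.21 (1.93-fold, adjusted p = 0.00990), and its second probe set went the same way, by 0.25. The single wild-type butyrate array read 7.28, above the wild-type HFD arrays at 6.41 and 6.23, with no test made.

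Lamb1 read 8.04, 7.53 and 8.07 with butyrate (0.78 ± 0.17, adjusted p = 0.00710), with its other probe sets at 0.47 and -0.23. Col3a1 read 9.80, 9.22 and 9.20 (0.76 ± 0.20, adjusted p = 0.0183), with its second probe set at 0.53. Col6a3 read 7.77, 7.51 and 7.87 (0.64 ± 0.16, adjusted p = 0.0170). For these 3 genes every butyrate array lay above both mutant HFD arrays.

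Type I collagen had lower values where type III rose, with Col1a1 the larger difference. Col1a1 read 5.26, 5.31 and 5.27 with butyrate, against 6.56 and 6.16 on HFD and 5.86, 5.88 and 5.95 on ND in mutants. It was 2.12-fold lower than on HFD (-1.08 ± 0.22, adjusted p = 0.00570), and the wild-type butyrate array, at 5.48, was below every array without butyrate as well. The second probe set of Col1a1 differed by only -0.05. Col1a2 read 7.50, 7.44 and 7.54, against 8.09 and 7.80 (-0.46 ± 0.14, adjusted p = 0.0420), and its second probe set differed by 0.12, the other way. The Col1a2 call was lost when any 1 of the 5 arrays was left out (differences of -0.60 to -0.31, adjusted p of 0.0529 to 0.292), and with the mean of its probe sets the difference was -0.17. Col15a1 read 5.90, 6.02 and 6.16, against 6.71 and 6.35 (-0.50 ± 0.16, adjusted p = 0.0464).

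The contrast between the 2 fibrillar collagens can be followed array by array as the deviation of Col1a1 from its mean minus that of Col3a1. It lay between 0.42 and 1.54 on the 4 HFD arrays, between -0.79 and 0.19 on the 5 ND arrays and between -1.06 and -0.43 on the 4 butyrate arrays. On these chosen probe sets the HFD arrays were apart from all others. The second probe set of Col1a1 was not higher on HFD, with differences from ND of -0.17 in mutants and -0.18 in wild type. The chosen one differed by 0.47 and 0.66, so the Col1a1 side of the contrast rests on 1 probe set. Each diet is also its own array series, and for this contrast, too, the 2 cannot be told apart.

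Single arrays bear on these calls. Without the first mutant HFD array 4 of the 9 were kept, and Col1a1 (adjusted p = 0.0654), Col3a1 (0.140), Pdgfrb (0.0922), Col1a2 (0.292) and Col15a1 (0.331) were not. Without the second 4 were kept, and Lum (0.0552), Mgp (0.0972), Lamb1 (0.0672), Col6a3 (0.147) and Col1a2 (0.0529) were not. Without butyrate array 1 or 3 Col1a2, Col15a1 and Col6a3 were lost, and without array 2 Col1a2 and Col15a1 (adjusted p of 0.0505 to 0.132). In a fit of the 5 arrays alone 5 members passed.

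**Figure D4:**
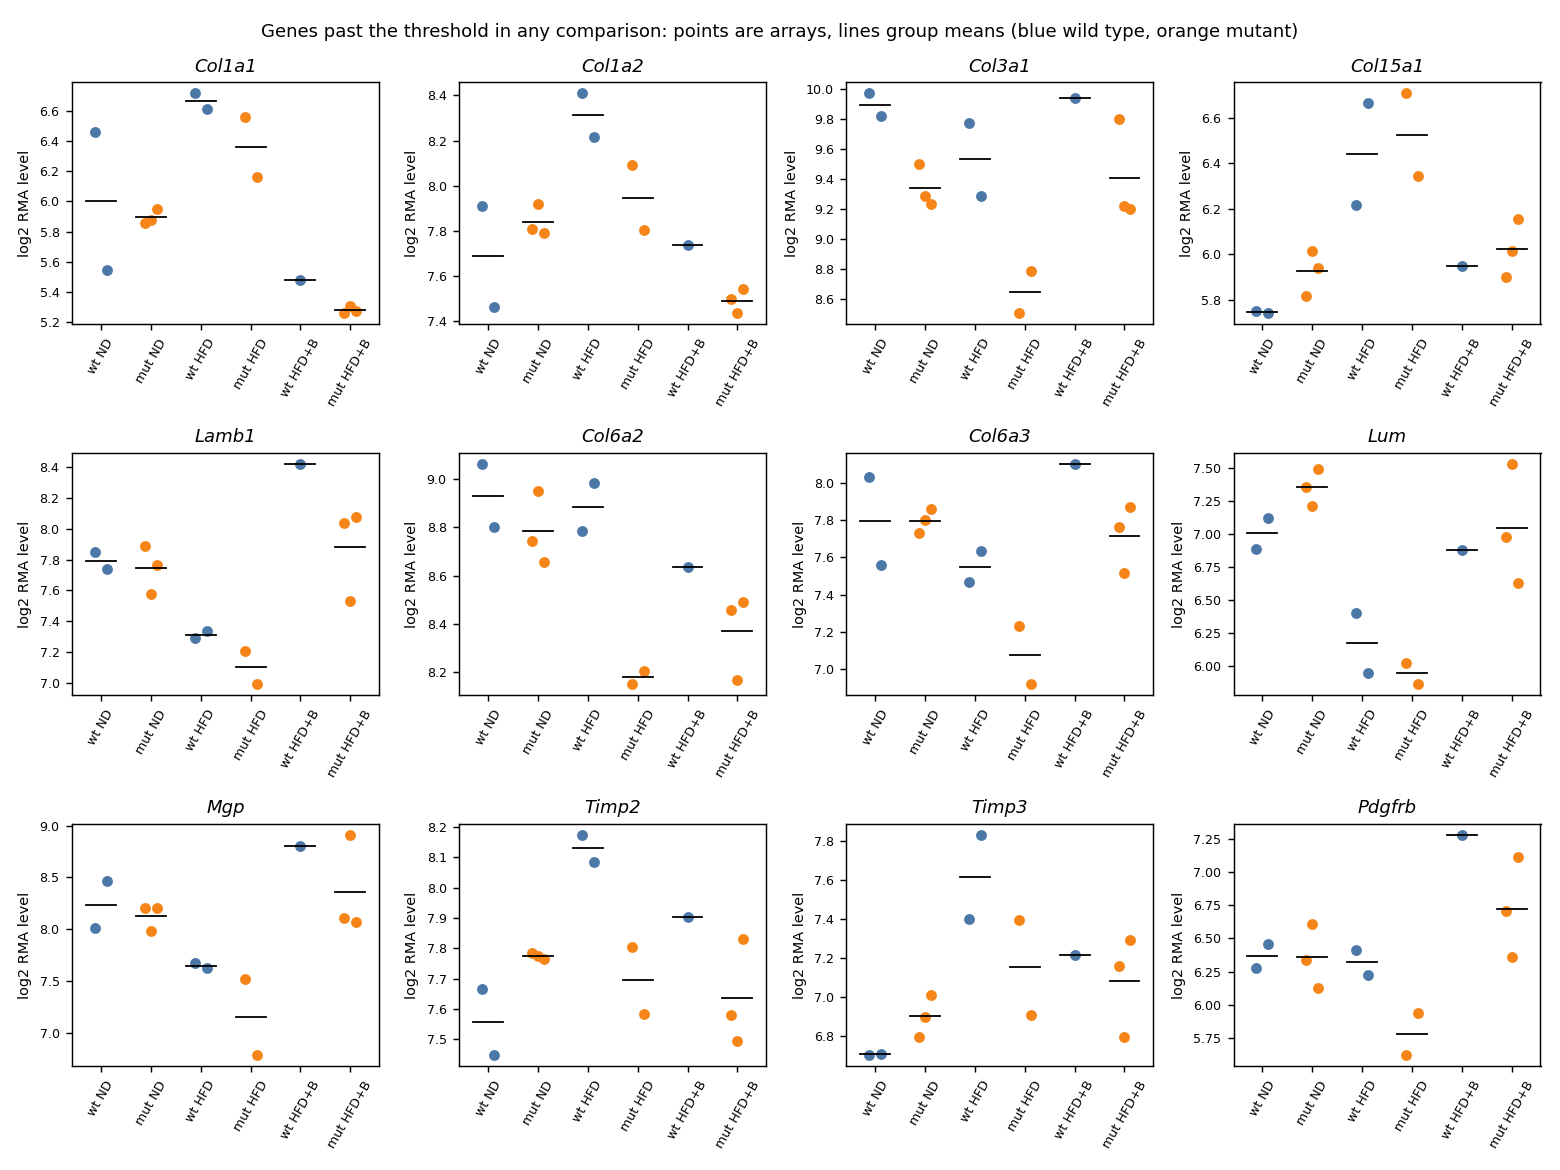
Level (log2 signal) on each array of the 12 members that passed the threshold in at least 1 comparison, by genotype and diet; each point is 1 array and each line a group mean. The 4 HFD values of Lum lie below the other 9, and the 4 butyrate values of Col1a1 lie below all others.

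Set against ND, mutants on HFD with butyrate had no member past the threshold in limma (smallest adjusted p = 0.122; 5 of 37, 13.5%, had an unadjusted p under 0.05, against 17.1% of all genes), where 1.57% of all genes passed. The median difference was -0.01, and it ran from -0.11, without the first butyrate array, to 0.02, without the second. The largest differences were those of Col1a1 (-0.62 ± 0.20, adjusted p = 0.145), of Postn (0.50 ± 0.25, adjusted p = 0.341) and of Col18a1 (0.43 ± 0.19, adjusted p = 0.284). Postn, for the matricellular protein periostin, read 7.02, 5.82 and 6.04 with butyrate, against 5.85, 5.66 and 5.87 on ND, so 1 array carried its difference. Col18a1, whose C-terminal fragment is endostatin, read 7.78, 7.47 and 8.03, against 7.66, 7.13 and 7.19. Both genes overlapped between the groups.

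Several members have more than 1 probe set, and they do not always go together. Of the 24 such members, the chosen probe set and the next brightest went opposite ways for 5 in the ND genotype comparison, for 5 in that on HFD, for 13 in HFD against ND in mutants, for 6 in wild type and for 8 for butyrate. They also did so for 8 in the genotype comparison with butyrate and for 10 in butyrate against ND in mutants. The median gap between the 2 readings was 0.11 on ND between genotypes and 0.44 and 0.47 in the HFD and butyrate comparisons in mutants. Sparc, for the collagen-binding protein osteonectin, had the widest gap of the 24 with butyrate in mutants. Its chosen probe set differed by -0.01 with butyrate in mutants, while the second read 7.09, 7.37 and 7.13 on the mutant butyrate arrays and 7.43 on the wild-type one, against 8.17 to 8.92 on the 9 other arrays.

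Other matrix genes, from related lists, were counted with the same fit. Their other probe sets were not compared, and their calls were not followed under the alternatives. The same holds for the marker lists below. For members, 1 of 21 calls was kept under every alternative. The shares of all genes past the threshold between genotypes were 0.428% higher and 0.597% lower. Between genotypes, 1 of 17 collagen synthesis genes fell, the collagen chaperone Serpinh1 (-0.66 ± 0.13), and 1 of 17 proteases and inhibitors fell, the collagenase Mmp13 (-0.59 ± 0.11). Of the 21 genes of TGF-beta and PDGF signalling, the ligand Pdgfc was lower (-0.53 ± 0.10), and of the 20 other collagens, the transmembrane collagen Col13a1 (-0.47 ± 0.10). Lamb3, a chain of the epithelial laminin-332, was higher in mutants (1.11 ± 0.12), 1 of 30 other matrix proteins. Adjusted p-values for these 5 genes ran from 0.00350 to 0.0474. Lamb3 also passed on ND alone (1.34 ± 0.16, adjusted p = 0.0150, limma), where 0.0242% of all genes passed. None of the 6 receptors for collagen and other matrix proteins and none of the 14 markers of mucosal fibroblast subtypes passed.

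On HFD in mutants 10.1% of all genes passed as lower and 7.67% as higher, and the counts of each list stand beside these shares. There 4 of 30 other matrix proteins fell and 2 rose. Those that fell were the small proteoglycan Ogn (-1.40 ± 0.27), dermatopontin, Dpt (-1.32 ± 0.26), tenascin C, Tnc (-0.64 ± 0.19), and the muscle laminin chain Lama2 (-0.62 ± 0.14). Those that rose were the epithelial laminin chains Lamb3 (0.99 ± 0.16) and Lama5 (0.63 ± 0.15). Of the 17 collagen synthesis genes, the hydroxylase subunits and lysyl hydroxylase P4ha1 (0.78), P4hb (0.44) and Plod3 (0.55) rose, and Colgalt1 (-0.60) and Ppib (-0.29) fell. Of the 21 signalling genes, Smad7 (1.05), Ltbp4 (0.83), Smad3 (0.66) and Tgfb1 (0.58) rose and Ltbp3 (-0.73) fell. The matrix receptors Ddr1 (0.70) and Itgb1 (0.55), 2 of 6, the BMP antagonist Grem1 (0.92), 1 of 14, and Col9a3 (0.38), 1 of 20, rose as well.

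In wild type on HFD 4 of the 21 signalling genes rose, Smad7 (1.23), Ltbp4 (1.21), Tgfb1 (0.87) and Pdgfa (0.58), with none lower. Ddr1 (0.61) and Itgb1 (0.63) of the 6 receptors and Lamb3 (1.16) of the 30 other matrix proteins rose too. Of all genes, 5.62% passed as higher there and 5.42% as lower. With butyrate in mutants, which shares the mutant HFD arrays, 5 of the 21 signalling genes fell, Ltbp4 (-1.03), Smad7 (-0.77), Tgfb1 (-0.67), Pdgfa (-0.66) and Smad3 (-0.56), and Ltbp3 (0.84) and the matricellular Ccn2 (0.71) rose. Of all genes, 12.9% passed as higher with butyrate and 8.78% as lower. Of the 17 proteases and inhibitors, the membrane-bound Mmp14 fell (-1.25 ± 0.18) and Mmp13 (0.79) and Mmp10 (0.61) rose. Of the 30 other matrix proteins, Dpt (1.67 ± 0.26) and Efemp1 (0.76) rose and Lamb3 (-0.84), Hspg2 (-0.51) and Lama5 (-0.49) fell. P4ha1 (-0.88), Plod3 (-0.57) and P4hb (-0.40) fell and Colgalt1 (0.51) rose. Ddr1 (-0.61), Itga5 (-0.71), Itga2 (-0.58) and Grem1 (-0.97) fell, and Itgav (0.51) rose.

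Markers of the other cells of the duodenal wall were read on the same arrays. Counts of markers past the threshold are to be read beside the shares of all genes given above for each comparison. The mean of the 10 macrophage markers ran from 6.52, on the second mutant HFD array, to 8.11. Between genotypes 9 of the 10 were lower in mutants and 3 passed, Lyz2 (-1.28 ± 0.25), Aif1 (-0.86 ± 0.16) and C1qb (-0.73 ± 0.15), beside the lower Col3a1. On HFD in mutants all 10 were lower and none passed, and with butyrate all 10 were higher and 4 rose, Csf1r (1.30), Tyrobp (1.06), C1qb (0.82) and Aif1 (0.81). The mean of 13 acinar pancreas markers ran from 5.97 to 13.32 over the arrays, and on the second mutant HFD array it was 6.12. The acinar markers thus differed widely between arrays, also within a group. The 10 epithelial markers kept their mean between 11.98 and 12.23.

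The mean of the 12 smooth muscle markers ran from 7.78 to 8.34, and on HFD in mutants Des rose (0.63) while Myl9 (-0.80) and Cald1 (-0.67) fell. With butyrate Des (-0.66) and Smtn (-0.46) fell and Cald1 (0.78) rose. The 12 endothelial markers had means of 5.83 to 6.62. Among them Pecam1 (0.96) and Eng (0.59) were higher on HFD in mutants and Pecam1 (1.11) was higher in wild type. Eng (-0.58) and Plvap (-1.04) were lower with butyrate. The endothelial list mean was 6.62 and 6.06 on mutant HFD, 6.01, 6.05 and 5.97 on mutant ND and 6.05, 5.83 and 6.28 on mutant butyrate arrays. In wild type it was 6.24 and 6.57 on HFD and 6.36 and 5.83 on ND. The 10 neuronal and glial markers had means of 4.64 to 4.90. Among them Ret was higher on HFD in mutants (0.73) and lower with butyrate (-0.95). The list mean overlapped between these groups, with 4.90 and 4.65 on mutant HFD, 4.71, 4.78 and 4.85 on mutant ND and 4.89, 4.64 and 4.76 with butyrate. The lists of 6 pericyte, 6 adipocyte and 3 mesothelial markers had means of 5.82 to 6.35, 5.15 to 7.60 and 3.71 to 4.33, and 1 gene of these passed in any of the comparisons above, Cidec with butyrate (-0.68). No list as a whole was at 0, since the log2 values have no true zero. The part of these other cells in the matrix results was tested only by the 2 covariate fits, for smooth muscle and for acinar pancreas, and was otherwise not tested.

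**Figure D5:**
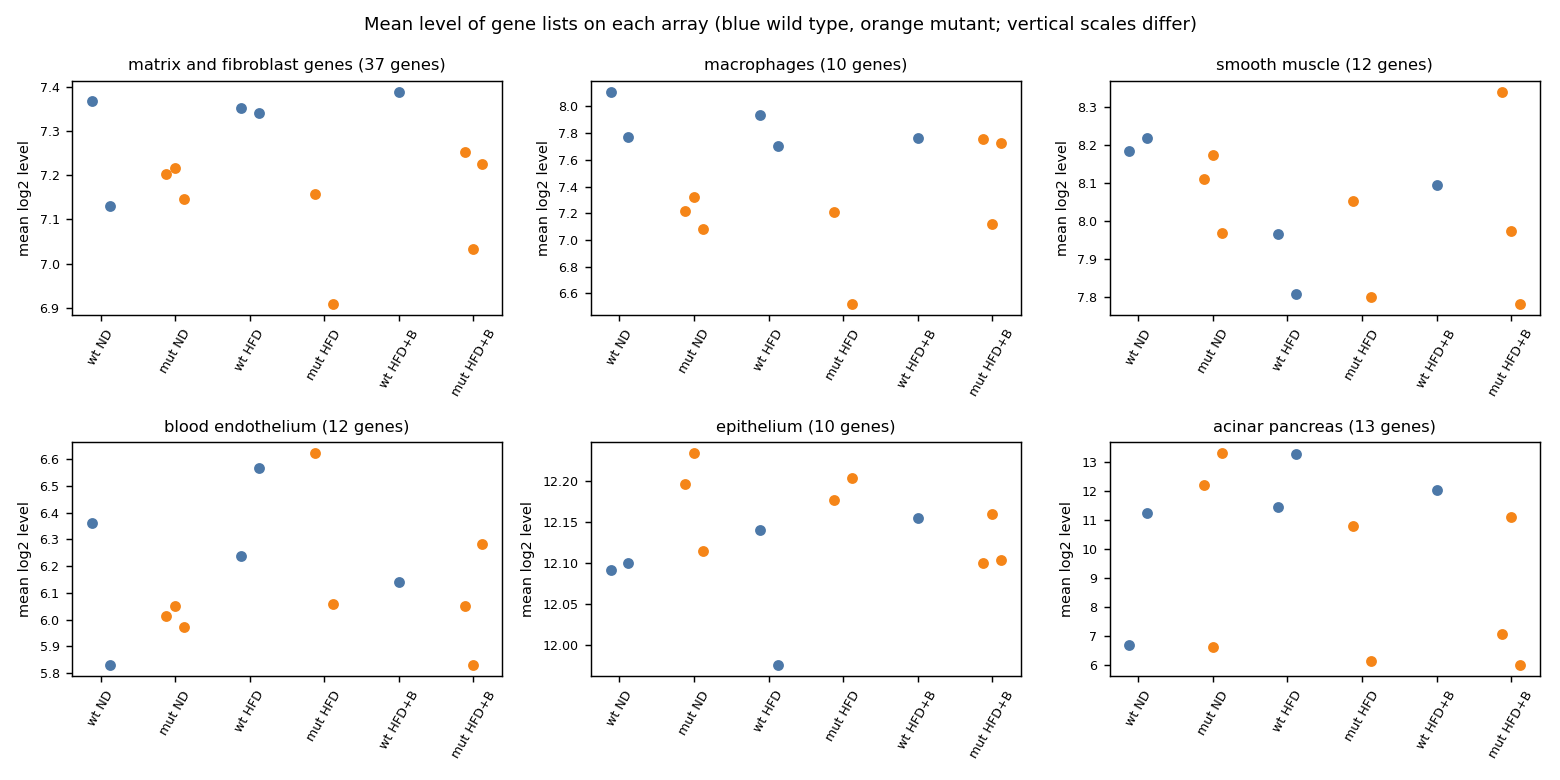
Mean log2 signal on each of the 13 arrays for the members and for lists of markers of other cell types, by genotype and diet. The macrophage mean is lowest on the second mutant HFD array, at 6.52, where the mean of the members is also lowest, at 6.91, and the acinar pancreas mean ranges from 5.97 to 13.32.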

How the data were processed

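The deposited table holds log2 expression values of 22690 probe sets on 13 arrays, made by the authors with RMA in Affymetrix Expression Console 1.1, per the submitters' processing notes. The labels' extract protocol names a whole-transcript labelling kit, while the probe set names are those of a 3′ array. A genome build was not given in the sources used here. The values were used as deposited, with 64 control probe sets left out. Of the rest, 20380 probe sets had 1 symbol, 691 several and 1555 none. Per gene the probe set with the highest mean was taken (12393 genes).

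Linear models were fitted to all genes with limma 3.58.1 in R 4.3.3 (lmFit, eBayes with an intensity trend; Benjamini-Hochberg adjustment over all genes; threshold 0.05). Comparisons within a diet or genotype used 6 group means (7 residual degrees of freedom). The genotype comparison over the 3 diets had 1 coefficient for genotype beside those for diet, which left 9 residual degrees of freedom. The fit was tested on simulated data. Groups hold 1 to 3 arrays, which limits the precision. The members and the gene lists were chosen with earlier results of these data known. Values on every array are given for members past the threshold in any comparison and, within each comparison, for the 3 with the largest difference. Genes of the related and marker lists are named where they passed in the comparisons given for those lists. Alternatives were array weights, the mean over all probe sets per gene, quantile normalization again, no intensity trend, a filter on dim genes, the compared groups only, the arrays without butyrate, equal weight for each diet, smooth muscle or acinar pancreas lists as a covariate, the replicate number as a block, and each array left out. The labels do not say what the replicate numbers share, and the arrays were not paired by them. The second wild-type and second mutant HFD array carry the same number in their identifiers, whose meaning the labels do not state.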

Additional observations from a re-analysis of the deposited data

Results flagged for a closer look

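Sparc and Timp2 are listed because their genotype difference went opposite ways in ND and in HFD with butyrate, with every mutant array on the same side of the wild-type arrays within each diet. The difference between the diets was not tested, and the wild-type butyrate group is 1 array. Sparc was 0.14 higher (log2) in mutants on ND and stood at -0.16 with butyrate. Timp2 was 0.22 higher on ND and stood at -0.27 with butyrate. Each rests on the chosen probe set: the next brightest stood at -0.06 on ND and -0.23 with butyrate for Sparc, and at -0.19 and -0.17 for Timp2, with no change of sign. No group was large enough for a test of single arrays that stand apart.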

How the results depend on the processing

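No difference of a named member changed its sign past the threshold under any alternative tried, but 20 of the 21 calls on members were lost under at least 1. For the genotype comparison over the 3 diets, 0 members passed with each diet weighted equally, with the replicate block and with smooth muscle as a covariate, and 2 with acinar pancreas as a covariate, with the mean of the probe sets and with only the arrays without butyrate; leaving out single arrays gave 0 to 3. For HFD with butyrate against ND in mutants 1 member passed with array weights, with the mean of the probe sets and with only the compared groups. For HFD against ND, 4 passed in mutants with smooth muscle as a covariate, and 0 in wild type with array weights, with only the compared groups and with smooth muscle as a covariate. For butyrate 5 passed with only the compared groups. Leaving out single arrays gave 2 to 6 members for HFD in mutants, 0 to 4 in wild type and 4 to 10 for butyrate. The median difference of the members then ran from -0.49 to -0.16 for genotype on HFD, from -0.11 to 0.078 on ND (0.078 without the first wild-type array), from -0.40 to -0.10 for the interaction, from -0.26 to -0.040 for HFD in mutants, from -0.086 (without the second wild-type ND array) to 0.17 for HFD in wild type and from 0.061 to 0.21 for butyrate. It ran from -0.25 to -0.14 for genotype with butyrate and from -0.11 to 0.02 for butyrate against ND. For genotype over the 3 diets it stayed between -0.27 and -0.13 under all alternatives. The cause was not tested. Counts over all genes, beside 127 for genotype, ran from 2 to 574; beside 3 on ND, from 0 to 174; beside 5 on HFD, from 3 to 14; beside 2197 and 1368 for HFD in mutants and wild type, from 990 to 3046 and from 116 to 1553; beside 2685 for butyrate, from 1317 to 3070; beside 195 for butyrate against ND, from 39 to 627; beside 1 for the interaction, from 1 to 10. Deviations of arrays with the same replicate number had a median r of 0.01, against -0.01 for other pairs. Of 12 arrays, 5 lay closest to one of their own number. In groups of 2 arrays the deviations from the group mean are equal and opposite, so these values cannot show whether the numbers pair arrays. The block was kept as an alternative, and it left 0 members for genotype, 6 for HFD in mutants, 3 in wild type and 7 for butyrate. Groups of 1 to 3 arrays and unknown probe-level background limit what small differences of dim members can show.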

Other observations

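Genes that lie side by side on a chromosome were set next to each other, as values only. Col3a1 and Col5a2 have no protein-coding gene between them; over the 3 diets they differed between genotypes by -0.66 and -0.32, and only Col3a1 passed. Col6a1 and Col6a2 differed by -0.32 and -0.37 and did not pass there. Lum and Dcn are also direct neighbours, and on HFD in mutants they differed by -1.41 and -0.23.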
